A study of Bos taurus with 8 samples.

Results

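The 10 chemokines and chemokine receptors described here were CCL2, CCL5, CCL20, CXCL2, CXCL10, CXCL12 and CXCL16 among the ligands, and CXCR4, CCR7 and ACKR3 among the receptors, measured in the rumen papillae of dairy cows on a low-concentrate (LC) or a high-concentrate (HC) diet. They were chosen by name as chemokine genes, with earlier results of these data known but no measured value used as a criterion. A gene was taken as measured where a probe of the array carried a RefSeq accession of that gene. Of the 10 genes, 7 had such a probe, against 7788 gene symbols matched in this way on the whole array, and for 6 of the 7 that probe was well above background on every one of the 8 arrays. No probe was matched to CXCL12, CXCL16 or ACKR3, which were not measured here, and CCL20 was well above background on 0 of 8 arrays.

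The 4 rumen-cannulated, lactating Holstein cows were each fed both diets in a crossover with 2 periods, and their papillae were taken from the ventral sac on day 21 of each period, 4 h after the morning feeding. The LC diet held 40% concentrate and the HC diet 70%, and the cows, all female and with no age given in the sources used here, had been on a low-concentrate diet before the trial. Cows 1 and 2 received LC in period 1 and HC in period 2, and cows 3 and 4 the reverse. RNA from each sample was hybridised to its own one-colour bovine array, and the 4 arrays of a period shared a slide, so that period and slide cannot be told apart.

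Chemokines are small secreted proteins that steer white blood cells along a gradient by binding receptors of the G protein-coupled family. Ligands with adjacent first cysteines (the CC or CCL group) chiefly attract monocytes, lymphocytes and eosinophils. Among ligands with a residue between these cysteines (CXC or CXCL), some attract neutrophils, and the interferon-induced members attract activated T cells. In a stratified epithelium such as that of the rumen, both the keratinocytes and the resident immune and stromal cells can make chemokines, and the receptors are found mainly on leukocytes.

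All values below are quantile-normalized log2 intensities. They compare arrays for 1 probe and not the levels of different genes. Between 76.9% and 81.2% of the 21475 probes were well above background per array, and 0 spots were saturated. Of the keratinocyte markers, KRT14, KRT15, DSG1, DSG3, DSP, IVL, ITGB4 and ITGA6 stood well above background throughout, while TP63 and LOR were so on 0. Of 20 leukocyte markers with a probe, 16 did so on every array, and the myeloid integrin ITGAM and the mast cell protease CPA3 on 0. In a bulk tissue such as this, fewer cells of a type and less RNA per cell cannot be told apart. In the deposited normalized table, the columns of cows 1 and 2 followed each other's scanner array on both diets (r of 0.999 across probes against 0.994 with the array of the same name), so that the names of these cows may be exchanged below. This touches neither diet, period nor pairing.

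None of the 6 measured genes passed the thresholds of the study between the diets, which ask for 1.5-fold or more together with p below 0.05 before adjustment (limma). By the brightest probe, all 6 had a higher mean on HC, by 0.05 (CCL5) to 0.51 (CXCL2 and CCR7) on the log2 scale. The other CCR7 probe was lower on HC (-0.18). In all 6 genes the arrays of the diets overlapped. The limma count at an unadjusted p under 0.05 was also 0 of 6, and it was 0 without variance moderation and 1 (CXCL10) with the cow as a block. Across the array, 0.922% of all probes passed both thresholds and 0.274% of the 16030 that lay well above background throughout, and 1.63% of the latter had diets that did not overlap. The median difference over those 16030 probes was 0.00, with 49.9% of them higher on HC. The smallest adjusted p for diet over all 21475 probes was 0.412.

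**Figure D1:**
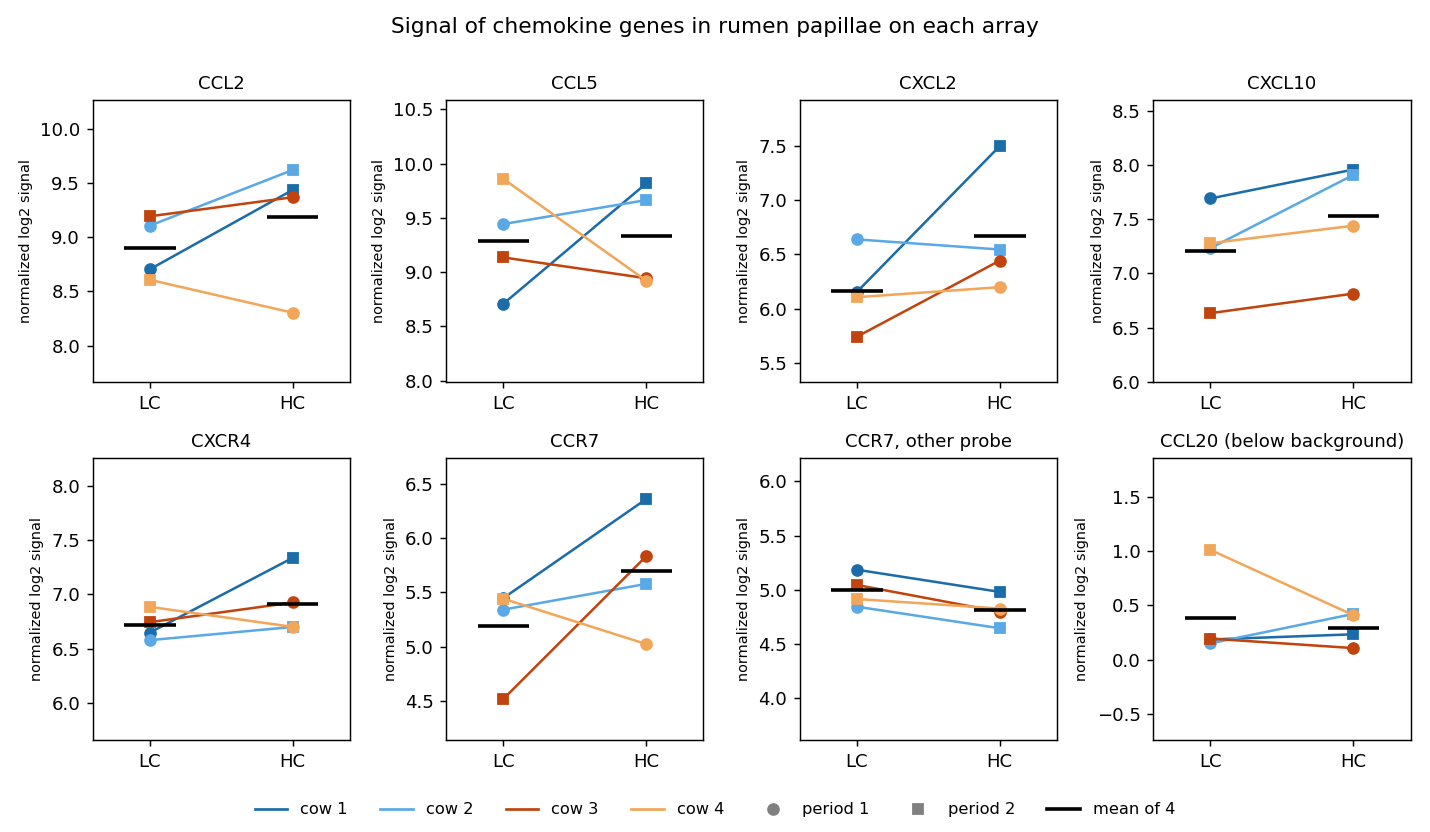
Quantile-normalized log2 signal (vertical axis, a separate range of equal height in each panel) of each gene on LC and HC, with a line per cow, circles for period 1, squares for period 2 and a bar for the mean of 4. CXCL10 was higher on HC in all 4 cows, the 2 CCR7 probes ran in opposite directions, and CCL20 was not well above background on any array.

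Among the ligands, CCL2 (NM_174006) draws monocytes and memory T cells through CCR2. Its log2 signal on LC was 8.70, 9.11, 9.19 and 8.61 in cows 1 to 4, and on HC it was 9.44, 9.62, 9.37 and 8.30. The highest 3 arrays were the HC arrays of cows 1, 2 and 3, and the lowest was the HC array of cow 4, so the HC range enclosed the LC range. The mean was 8.90 ± 0.29 (SD, n = 4) on LC and 9.18 ± 0.59 on HC. The difference was 0.28 on the log2 scale (SE 0.27, 95% interval -0.37 to 0.93), with an unadjusted limma p of 0.339 and p = 0.429 in the exact permutation test. Leaving out the HC array of cow 3 gave 0.01, and leaving out that of cow 4 gave 0.55.

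CCL5 (NM_175827), also known as RANTES, is a product of activated T cells and other cells and binds CCR1 and CCR3 among other receptors. The LC arrays read 8.71, 9.44, 9.14 and 9.86 in cows 1 to 4, and the HC arrays 9.82, 9.66, 8.94 and 8.92. HC was above LC in cows 1 and 2 and below it in cows 3 and 4, with differences of 1.11, 0.22, -0.19 and -0.94. The diets differed by 0.05 (SE 0.22, 95% interval -0.49 to 0.59, limma unadjusted p = 0.83, exact permutation p = 0.857). The sign of this small difference turned to -0.13 when LC of cow 1, or LC of cow 3, was left out.

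The same 8 values sorted differently by period. CCL5 was higher in period 2 than in period 1 in 4 of 4 cows, with means of 9.62 ± 0.33 and 9.004 ± 0.31 (SD, n = 4 arrays each). The difference of 0.62 (1.53-fold, SE 0.22) passed the thresholds with an unadjusted limma p of 0.0312, and its adjusted p over all probes was 0.346. The exact permutation p was 0.0571, since the highest array of period 1 lay above the lowest of period 2. CCL5 was the only one of the 6 genes past the thresholds for period, as were 3.86% of all probes and 1.95% of those well above background on all arrays. The call did not hold when LC of cow 1 (0.43) or cow 4 (0.43) was left out, nor when HC of cow 1 (0.58), cow 2 (0.65), cow 3 (0.62) or cow 4 (0.61) was, and it held when LC of cow 2 (0.80) or cow 3 (0.80) was left out. Of the summed signal of the 16 leukocyte markers, 93.3% to 96.2% per array came from S100A8 and S100A9, which squamous epithelium also makes, so the other 14 were averaged on the log2 scale, a choice made with the values in view. Their mean spanned 7.50 to 7.69 in period 1 and 7.38 to 8.05 in period 2, and 1 of the 16, the immunoglobulin J chain JCHAIN, was higher in period 2 past both thresholds. Their part in the CCL5 difference was not tested.

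CXCL2 (NM_174299) is a neutrophil attractant of the GRO family that acts through CXCR2. Its arrays read 6.15, 6.64, 5.74 and 6.11 on LC and 7.50, 6.55, 6.44 and 6.20 on HC in cows 1 to 4. The HC array of cow 1 was the highest of the 8 and the LC array of cow 3 the lowest, and the other 6 lay between 6.11 and 6.64 with the diets mixed. The differences by cow were 1.35, -0.09, 0.70 and 0.09. The mean difference was 0.51 (1.43-fold, SE 0.24, 95% interval -0.08 to 1.10), and it missed both thresholds (unadjusted limma p = 0.0788, exact permutation p = 0.229). It passed them without the HC array of cow 2 (0.75, limma unadjusted p = 0.00906) and was 0.27 without that of cow 1.

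CXCL2 has close paralogs, and 2 of them were on the array. CXCL3 differed between the diets by 0.23 and CXCL1, listed in the reference as GRO1, by 0.16, with unadjusted limma p values of 0.582 and 0.724. Across the 8 arrays, which come from 4 cows, the Pearson r of CXCL2 was 0.50 with CXCL3 and 0.55 with CXCL1, while CXCL3 and CXCL1 had 0.83. Whether these probes share transcripts was not tested, because no probe sequences were used.

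CXCL10 (NM_001046551) is an interferon-induced ligand of CXCR3 and attracts activated T cells. On LC the arrays read 7.69, 7.23, 6.63 and 7.28 in cows 1 to 4, and on HC 7.96, 7.91, 6.81 and 7.44. HC exceeded LC in 4 of 4 cows, by 0.27, 0.67, 0.18 and 0.16, but cow 3 had the lowest array on both diets and the diets overlapped. The difference was 0.32 (1.25-fold, SE 0.22, 95% interval -0.20 to 0.85), with an unadjusted limma p of 0.186 and p = 0.400 by exact permutation. With the cow as a block, the SE fell to 0.11 and the unadjusted limma p to 0.0350, and the difference stayed under 1.5-fold. An exact sign-flip test over the 4 cows gave p = 0.125, the smallest that 4 pairs allow.

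CXCL10 was also the only one of the 6 past the thresholds for the interaction of diet and period, which in this crossover sets cows 1 and 2 against cows 3 and 4. The coefficient, the HC minus LC difference in period 2 less that in period 1, was 1.31 (SE 0.43, limma unadjusted p = 0.0219, adjusted p = 0.434). Cows 1 and 2 averaged 7.82 and 7.57 over their diets, and cows 3 and 4 averaged 6.72 and 7.36. The pairs of cows differed by 0.66, and a limma test of the 4 cow means gave an unadjusted p of 0.0619, which missed the threshold (95% interval of the difference -0.05 to 1.36). As each cow gave 2 arrays, the p over 8 arrays counts each cow more than once. An interaction and a difference between the pairs of cows cannot be told apart.

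Of all probes, 8.58% passed the interaction thresholds, and 8.2% of those well above background on all arrays. With the fold threshold set on the difference between the pairs of cows, CXCL10 still passed, as did 2.93% of all probes. The CXCL10 call did not hold when LC of cow 1 (1.08) or cow 3 (0.99) was left out, nor when HC of cow 1 (1.29), cow 2 (1.34) or cow 3 (1.00) was. CXCL2 had a coefficient of 1.17 with an unadjusted limma p of 0.0511, just short of the threshold, and in the limma test of the 4 cow means, where the pairs differed by 0.59 (95% interval 0.22 to 0.95), its unadjusted p was 0.0109. Within period 2, where HC came from cows 1 and 2 and LC from cows 3 and 4, HC exceeded LC by 0.98 for CXCL10 and 1.10 for CXCL2. Within period 1, with the cows the other way round, the differences were -0.33 and -0.08. The mean log2 signal of the 14 leukocyte markers other than S100A8 and S100A9 was 7.50 to 8.05 in cows 1 and 2 and 7.38 to 7.88 in cows 3 and 4, and 3 of the 16 markers passed for the interaction: the T cell receptor chain CD3G (-1.04), lysozyme LYZ (1.39) and the macrophage protein AIF1 (0.84). Their part in the CXCL10 value was not tested.

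**Figure D2:**
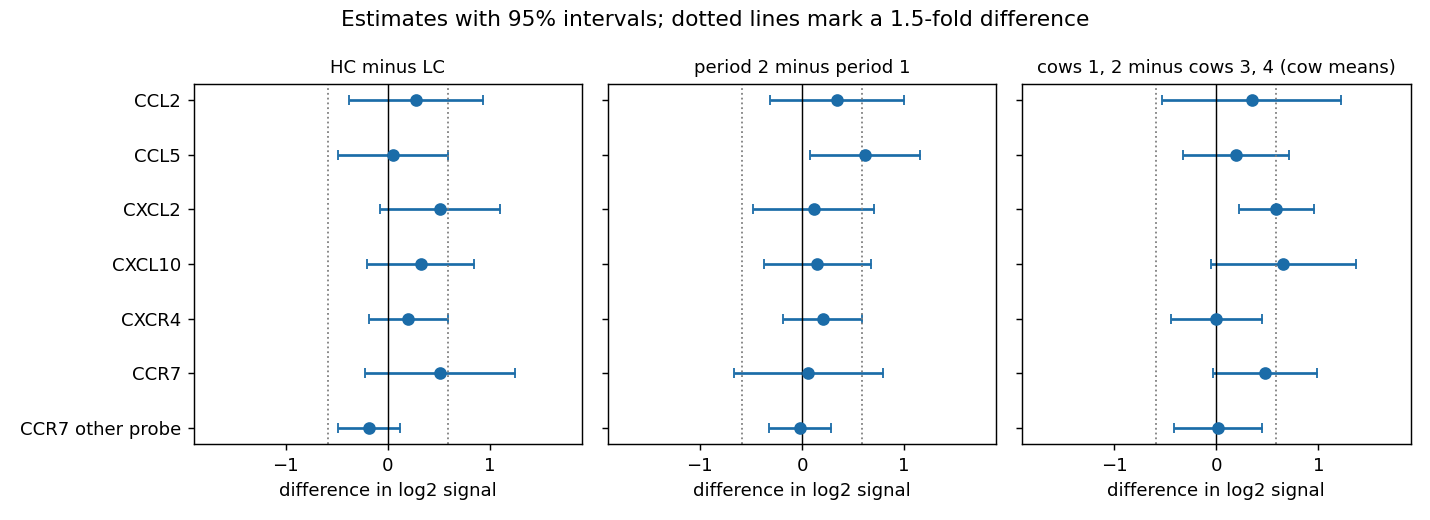
Differences in log2 signal (horizontal axis) with 95% intervals from limma for HC minus LC, period 2 minus period 1, and cows 1 and 2 minus cows 3 and 4, the last from 1 mean per cow, with dotted lines at 1.5-fold. The diet intervals of all 6 genes include 0, as does that of CXCL10 for the pairs of cows (-0.05 to 1.36), while those of CCL5 for period (0.08 to 1.15) and of CXCL2 for the pairs of cows (0.22 to 0.95) do not.

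Among the receptors, CXCR4 (NM_174301) is the receptor of CXCL12 and is carried by most leukocytes. Its arrays read 6.65, 6.58, 6.74 and 6.89 on LC and 7.34, 6.70, 6.93 and 6.70 on HC in cows 1 to 4. The HC array of cow 1 stood above every other array, and the remaining 7 spanned 6.58 to 6.93. The difference was 0.20 (SE 0.16, 95% interval -0.18 to 0.59, limma unadjusted p = 0.249, exact permutation p = 0.286), and it was 0.04 without the HC array of cow 1. The estimate was 0.20 within each period, with an SE of 0.22 in each.

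CCR7 (NM_001024930) guides naive T cells and mature dendritic cells to lymph nodes, and it had 2 probes. The brighter probe read 5.45, 5.34, 4.52 and 5.44 on LC and 6.36, 5.58, 5.83 and 5.02 on HC in cows 1 to 4. The LC array of cow 3 was far below the other LC arrays, and HC exceeded LC in cows 1, 2 and 3 and not in cow 4. The difference was 0.51 (SE 0.30, 95% interval -0.22 to 1.24), with an unadjusted limma p of 0.139 and p = 0.229 by exact permutation. It was 0.28 without the LC array of cow 3.

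The other CCR7 probe gave the opposite sign. It read 5.18, 4.84, 5.04 and 4.91 on LC and 4.98, 4.65, 4.80 and 4.83 on HC in cows 1 to 4, so HC was lower in 4 of 4 cows, although the diets overlapped. Its difference of -0.18 (SE 0.13, 95% interval -0.49 to 0.12) had an unadjusted limma p of 0.190 and an exact permutation p of 0.143. Both probes carry the same accession, and no direction is given here for CCR7.

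**Figure D3:**
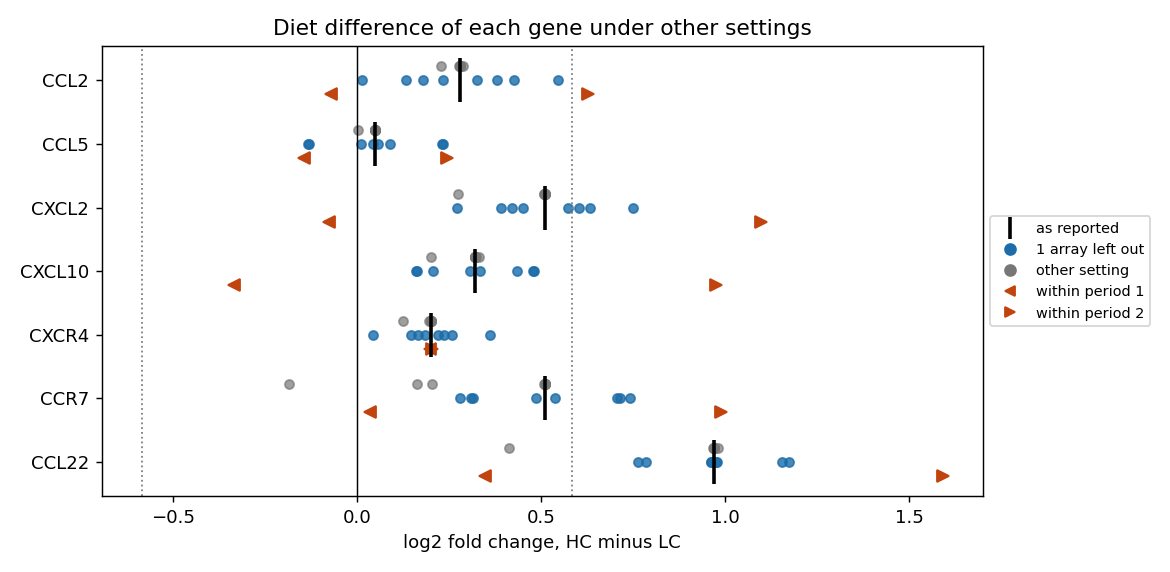
HC minus LC in log2 signal (horizontal axis) of each gene as reported (bar), with 1 array left out (blue), within period 1 or 2 (triangles) and under the other settings (grey), with dotted lines at 1.5-fold. CXCR4 differed by 0.20 within each period (SE 0.22 in each). CXCL2, CXCL10 and CCR7 (brighter probe) were 0.98 to 1.10 higher on HC in period 2 and between -0.33 and 0.03 in period 1.

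How far the 6 genes moved together was described by the Pearson r of their log2 signals over the 8 arrays, which share cows and slides. With CCR7 taken by its brighter probe, the 15 pairs ranged from 0.08 (CCL2 and CXCL10) to 0.87 (CXCL2 and CCR7), and all were positive. The other CCR7 probe was not used for these pairs. CXCR4 also had 0.71 with CCR7 (brighter probe) and 0.68 with CXCL2. Among 6468 other named genes well above background on all 8 arrays, the nearest to CXCL10 were the proteasome subunit PSMB2 (0.99), PDCL3 (0.98) and the proteasome ATPase PSMC2 (0.97). The nearest to CCL5 were the kininogen gene KNG1 (0.97), the mismatch repair gene MSH3 (0.95) and RRAGB (0.95), and to CCL2 they were GBA3 (0.94), TTC9B (0.92) and CTHRC1 (0.92). CXCL2 was closest to BRB (0.93), ARL6IP1 (0.92) and the phosphatase subunit PPP2R1A (0.92), and CXCR4 to WIPF1 (0.93), the cadherin CDH11 (0.91) and CELA1 (0.91). The brighter CCR7 probe was closest to the proton pump subunit ATP6V1H (0.93), MTMR11 (0.93) and BIN2 (0.92). Given the 6468 candidates and 8 arrays, these values are a description only.

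The partners of these ligands and receptors differed in whether they were measured above background. CCR2, the receptor of CCL2, and CCR6, the receptor of CCL20, were well above background on 0 of 8 arrays, and CXCR3, the receptor of CXCL10, on 1. No probe was matched to CCR3 or CXCR2. The receptors CCR1, CXCR1 and CXCR6 and the CCR7 ligand CCL21 were above background on all 8 arrays, and 0 of these 4 passed the thresholds for diet (limma, also 0 at an unadjusted p under 0.05). CXCR6, the receptor of CXCL16, averaged 8.33 ± 0.36 on LC and 8.64 ± 0.32 on HC (SD, n = 4), with a limma unadjusted p of 0.0816. CCL21 differed by 0.52 with a 95% interval of -0.72 to 1.76.

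CCR1, which binds CCL5, was higher on HC in 4 of 4 cows. Its diets did not overlap, as in 1.63% of probes well above background throughout, although the highest LC array and the lowest HC array both read 6.37. LC spanned 5.49 to 6.37 and HC 6.37 to 6.63. The difference was 0.37 (1.29-fold, 95% interval -0.08 to 0.81), with an unadjusted limma p of 0.0929. The exact permutation p was 0.0286, the smallest that 4 arrays against 4 allow, but that test does not use the pairing by cow. The exact sign-flip test over the 4 cows gave p = 0.125. The difference passed neither threshold of the diet comparison.

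The lists for the rest of the pathway left out CCL8, CCL19, CXCL6, CXCL8 and CX3CR1. The study reports CCL8, CCL19, CXCL6 and CX3CR1 as higher on HC. On these lists were 104 further genes, of which 57 had a probe, with 44 of them well above background throughout. They comprised 12 of 26 other ligands, 10 of 19 other receptors, 14 of 38 signal transduction genes, 3 of 8 genes that cleave or bind chemokines and 5 of 13 inducers. Of the 44, 1 gene (2.27%) passed the diet thresholds, in the upward direction, against 0.274% of all probes well above background throughout, and 0 passed in the downward direction. Together 33 of the 44 (75%) were higher on HC, against 49.9% of those probes. Of the marker lists for other cell types, 6 of 6 endothelial, 5 of 5 smooth muscle, 5 of 7 fibroblast and 4 of 8 keratinocyte genes were higher on HC. The median difference was 0.14 for the other ligands, with 9 of 12 higher on HC, 0.11 for the other receptors, with 8 of 10 higher, and 0.01 for signal transduction, with 9 of 14 higher. The medians of the 4 measured ligands and 2 measured receptors described above were 0.30 and 0.36. The latter rests on CXCR4 (0.20) and the brighter CCR7 probe (0.51), and the other CCR7 probe gave -0.18. The 16 leukocyte markers had a median of 0.10, with 13 higher on HC and 0 past the thresholds (limma, also 0 at an unadjusted p under 0.05). The mean log2 signal of the 14 without S100A8 and S100A9 was 7.38 to 7.88 on LC and 7.51 to 8.05 on HC.

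The gene that passed was CCL22 (NM_001099162), a ligand of CCR4 made by macrophages and dendritic cells that attracts T helper 2 and regulatory T cells. Its arrays read 5.27, 5.30, 4.85 and 5.67 on LC and 7.22, 6.48, 5.65 and 5.62 on HC in cows 1 to 4. The HC arrays of cows 1 and 2 stood above all others, while in cow 4 the diets were nearly equal, and the ranges overlapped there. HC exceeded LC by 0.97 (1.96-fold, SE 0.23, 95% interval 0.40 to 1.54), with an unadjusted limma p of 0.00547, an adjusted p of 1.00 over all probes and an exact permutation p of 0.0857. The differences by cow were 1.95, 1.18, 0.80 and -0.05. The call held without any 1 array (0.77 to 1.17) and was lost within period 1 (0.35) and with normexp background correction (0.41). With normexp its unadjusted limma p was 0.0122 and only the fold fell short. In that setting 8 of all 21475 probes passed for diet, against 198 in the main fit. CCL22 also passed the thresholds for period (0.59) and for the interaction (1.24). Its receptor CCR4 averaged 3.93 on LC and 3.81 on HC, with a limma unadjusted p of 0.345.

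**Figure D4:**
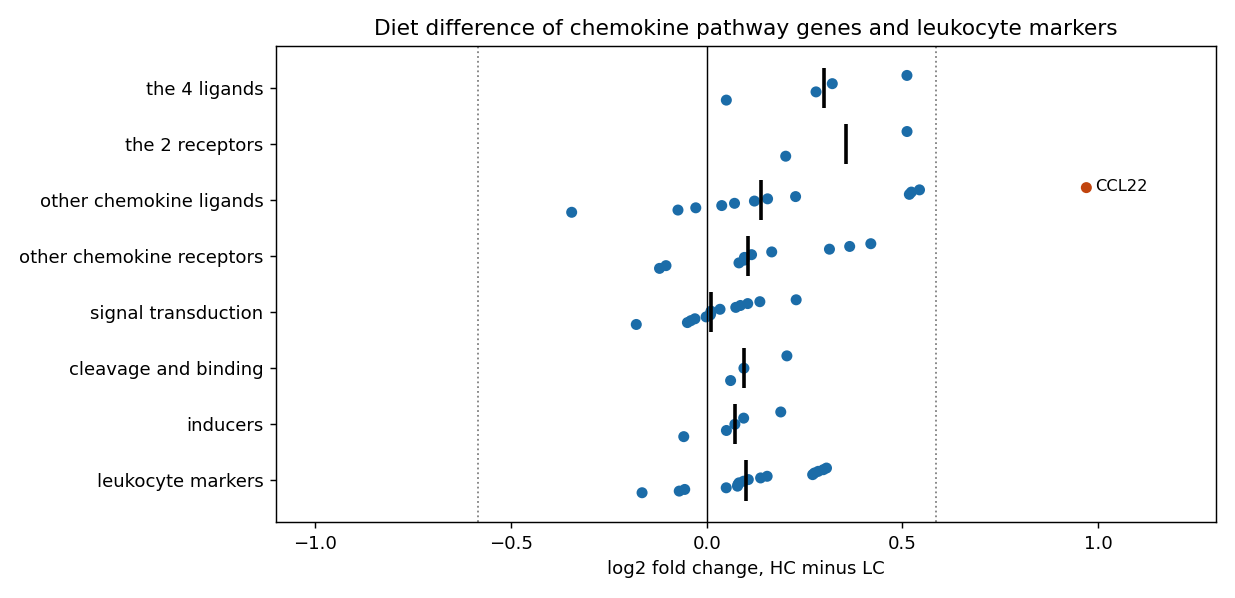
HC minus LC in log2 signal (horizontal axis) of each gene well above background on all 8 arrays, by list, with a bar at the median of each list and dotted lines at 1.5-fold. Only CCL22, among the other ligands, lies outside the dotted lines, and the medians run from 0.01 to 0.36, with CCR7 shown by its brighter probe.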

How the data were processed

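For each of the 8 arrays the authors deposited Feature Extraction 10.7.3.1 output, in which a spot has a background-subtracted intensity with no normalization between arrays. They also deposited a table of log2 values that they had quantile-normalized, used here as an alternative. Of its 48 values for the 6 measured genes, 0 lay within 0.005 of the average of that diet's other 3 values.

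After removal of control and outlier spots, log2 intensities were quantile-normalized (limma 3.58.1, R 4.3.3) and averaged over the spots of each probe. A probe counted as well above background where the scanner software marked all its spots so. Of 10176 probes with a RefSeq accession, 8297 were named through a RefSeq gene table (ARS-UCD2.0), and a gene was taken as its brightest probe. The array's genome build is not given in the sources used here, so positions are not printed.

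A limma model with terms for diet, period and the interaction was fitted to all 21475 probes (no trend, not robust, 4 residual and 2.26 prior degrees of freedom), following the study's model and thresholds (fold of at least 1.5, unadjusted p under 0.05), with Benjamini-Hochberg adjustment over all probes. The fit was tested on simulated data. Exact permutation tests were two-sided over the 4 arrays per diet or period. The arrays come from 4 cows, and the model has no term for cow. Its p-values and the permutation tests thus take the arrays of a cow as independent. Only the fit with the cow as a block, the sign-flip test and the test of cow means use the cow as the unit. The labels pair the arrays by cow: deviations from the diet means correlated by 0.11 to 0.47 within a cow and by -0.24 to 0.19 between cows across 16030 probes. Normexp used the median spot signal, as the files hold no mean signal column. Figures were drawn with matplotlib 3.10.9.

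The genes, lists and settings were chosen with earlier results of these data known. Named were all 10 genes, the receptors and ligands that pair with them (1 such gene is not reported here), every listed pathway gene past both diet thresholds, and the 3 genes most like each. CXCL1, CXCL3 and CCR4 were added after their values were seen, as were the genes named for period or interaction. In the other marker lists 0 genes passed for diet: endothelial (6 measured, median 0.08), fibroblast (7, 0.09), smooth muscle (5, 0.04) and keratinocyte (8, -0.01), and likewise for genes that cleave or bind chemokines (0.10) and inducers (0.07).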

Additional observations from a re-analysis of the deposited data

Results flagged for a closer look

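The LC array of cow 3 stood apart from the other 3 LC arrays for the brighter CCR7 probe: its gap to the nearest was 0.886 of the whole LC range, above Dixon's 95% critical value for 4 samples. Chance alone gives such a gap in about 5% of groups of this size. The other CCR7 probe read 5.04 on that array, inside its LC range of 4.84 to 5.18.

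The diet difference of CXCL10 differed between the periods by 1.31 on the log2 scale (limma, unadjusted p = 0.0219, adjusted p = 0.434), being -0.33 in period 1 and 0.98 in period 2. Each period's comparison is between different cows.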

How the results depend on the processing

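The diet count of 0 among the 6 genes held in 19 of 21 alternatives. It was 2 within period 2 (CXCL2 and CXCL10), where 774 of all 21475 probes passed, against 198 in the main fit. It was 0 to 1 with 1 array left out (1, CXCL2, without the HC array of cow 2). With the cow as a replicate block the count was 0, and the paired fit changed no call. The period count of 1 was 0 with normexp background correction, 0 without moderation and 0 to 1 with 1 array left out. With normexp the CCL5 period difference was 0.50 with an unadjusted limma p of 0.0287, so only the fold fell short. Without the HC array of cow 3 the 1 gene was CCL2, and not CCL5. The interaction count of 1 was 2 with 75th percentile scaling and with the filter on at least 4 arrays (CXCL2 and CXCL10), 0 without moderation, and 0 to 1 with 1 array left out. The 1 gene was CXCL2, and not CXCL10, with 1 mean value per cow and with LC of cow 1 or HC of cow 2 left out, and CCL2 with HC of cow 3 left out. The pathway count of 1 was 0 with normexp, 0 within period 1, 5 within period 2 (CCL4, CCL11, CCL22, CCR1 and MMP9) and 1 to 2 with 1 array left out. With normexp, 8 of all 21475 probes passed for diet, against 198 in the main fit.

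Differences that turned in sign were CCL2 (-0.0693), CCL5 (-0.14), CXCL2 (-0.0754) and CXCL10 (-0.33) within period 1, CCL5 without the LC array of cow 1 (-0.13) or cow 3 (-0.13), and CCR7 by its other probe (-0.18). Over the arrays left out, diet differences spanned 0.01 to 0.55 for CCL2, -0.13 to 0.23 for CCL5, 0.27 to 0.75 for CXCL2, 0.16 to 0.48 for CXCL10, 0.04 to 0.36 for CXCR4 and 0.28 to 0.74 for CCR7. The CCL5 period difference spanned 0.43 to 0.80 and lost its call in 8 of 13 alternatives. The CXCL10 coefficient spanned 0.99 to 1.63 and lost its call in 7 of 14. The causes were not tested.

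Normexp on the median signal, the other CCR7 probe, the settings of CCL22 and the fold threshold on the pairs of cows were chosen after seeing the data. The 4 cows limit the precision, and a p that missed the threshold does not show equal values.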

Other observations

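Other chemokine genes that the diet comparison did not call passed the thresholds between periods or between the pairs of cows. They were picked out once their values had been seen. The counts below also include CCL22, which the diet comparison did call. Of the 44 measured pathway genes, 5 (11.4%) passed for the interaction, against 8.2% of all probes well above background on every array, and 3 (6.82%) passed for period, against 1.95%. With the fold threshold set on the difference between the pairs of cows, 3 of the 5 (CCL11, CCL22 and MMP9) still passed. That is 6.82% of the 44, against 2.93% of all probes under the same rule. MMP9, a gelatinase that trims several chemokines, had an interaction coefficient of 1.47 (SE 0.20, limma unadjusted p = 0.000238, adjusted p = 0.157), and cows 1 and 2 averaged 0.73 above cows 3 and 4. The eosinophil attractant CCL11 had 1.87 (limma adjusted p = 0.456), and cow 1 was lower on HC by 0.88 while the other 3 cows were higher by 0.92 to 1.09. The scavenging receptor ACKR4 (-0.76) and the ligand CCL14 (-0.59) had coefficients of the opposite sign, and their pairs of cows differed by less than 1.5-fold (-0.38 and -0.30). As for CXCL10, the interaction p-values of these genes count each cow more than once. No test of cow means is given for them.

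Between periods, the macrophage inflammatory proteins moved in opposite directions, with CCL3 lower by 0.61 and CCL4 higher by 0.73 in period 2 (limma adjusted p values of 0.362 and 0.298). CCL3 was higher in period 2 in 0 of 4 cows (exact permutation p = 0.0286). CCL4 was higher in only 3 of 4 cows and its periods overlapped (exact permutation p = 0.143). In cows 1 to 4, the HC minus LC difference of CCL4 was 1.24, 1.32, 0.27 and -0.65, and that of CCL3 was -0.59, -0.49, 0.14 and 1.22.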
